A study of Mus musculus with 4 samples.

Results

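The genes described here carry fatty acids into cells, store them and oxidise them in mitochondria. They were named as 35 genes, and the value of a gene is that of its brightest probe set annotated to no other gene. On that rule 33 of the 35 were matched, of 18193 genes measured. Acsl1, which activates fatty acids to acyl-CoA, had no entry in the annotation used here, and the probe set of Cpt1b, the muscle form of the first carnitine transferase, is shared with other genes, so neither has a value. RNA came from semilunar valve leaflets (aortic and pulmonary together) dissected from neonatal mouse hearts and was hybridised to Affymetrix arrays, with signals on the linear MAS5 scale. One genotype was Cxcr7-/-, which lacks the receptor Cxcr7 (Ackr3), a scavenger of the chemokine CXCL12. The other, called control, was wildtype littermates. Each genotype had 2 arrays, and each array held a pool of 3 animals, which hides the spread between animals. The labels call the pools biological replicates and name no treatment, strain, sex or litter. They also say that some mutant valves had fewer leaflets than the wildtype ones.

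Fatty acids reach cells from lipoproteins, cross the membrane with the help of carriers, bind small cytosolic proteins and are either stored in lipid droplets or passed by carnitine into mitochondria. There beta-oxidation shortens them by a repeating cycle of dehydrogenation, hydration, dehydrogenation and thiolysis, and flavoproteins hand the electrons to the respiratory chain. Heart muscle and brown fat use this route heavily, and nuclear receptors of the PPAR and estrogen-related receptor families switch its genes on.

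More of the 33 genes read lower than higher in Cxcr7-/- leaflets. The log2 differences ran from -1.92 (Plin5) to 0.37 (Echs1). Those below -1 were Ppargc1a, Lpl, Slc27a1, Fabp3, Pdk4, Pdk2, Plin5 and Adipoq. Among these, Pdk2 and Adipoq were too dim for the filter described below. The share of all genes below -1 was not counted, so this list has no background to be read against. Of the 33 genes, 17 had both Cxcr7-/- pools below both control pools and 3 (Echs1, Etfa and Etfb) had both above. Over all 18193 genes these shares were 19% and 18.3%. The median log2 difference (Cxcr7-/- minus control, of log2(signal + 22)) was -0.47, against -0.02 over all genes, with 26 negative and 7 positive. The difference between genotypes was larger than both differences between pools of 1 genotype for 12 genes, against 23.7% of all genes. By role, the medians were -1.06 for uptake and binding, -1.09 for fuel choice, -1.75 for lipid droplet and adipocyte genes, -0.23 for beta-oxidation enzymes and 0.09 for electron transfer. With a pseudocount 4 times larger the fuel choice median was -0.65 and the lipid droplet and adipocyte median -0.82, and with none they were -1.29 and -2.19. Without probe sets of an _x_at or _s_at suffix the latter was -0.89. The lipid droplet and adipocyte role held 3 genes, so its median of -1.75 was the value of Adipoq alone. Adipoq read only 2.63 and 22.4 in Cxcr7-/- replicates 1 and 2. The differences between these roles were not tested.

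None of the genes passed the test across the whole table. By limma with Benjamini-Hochberg adjustment the smallest adjusted p among them was 0.406, and 0 of 22518 probe sets (0%) passed 0.05, although 2279 had an unadjusted p under 0.05. A filter on dim signals (mean log2 value above the median of all probe sets) kept 30 of the 33 genes. Of these 30, the genes lower with an unadjusted p under 0.05 were 7 (Ppargc1a, Lpl, Slc27a1, Fabp3, Pdk4, Acot2 and Plin5), and 0 were higher. The shares over all genes above the filter were 4.09% and 3.95%. Fitted with no filter, 9 of the 33 were lower and 0 higher, against 3.69% and 3.46% of all genes. The count of 7 was 4 with arrays centred on their medians (Lpl, Fabp3, Pdk4 and Plin5), where the share of all genes was not counted. With 1 array left out, the log2 difference ranged from -1.67 to -0.36 for Ppargc1a and from -1.67 to -0.45 for Slc27a1. It ranged from -1.81 to -0.89 for Lpl and from -1.47 to -0.93 for Fabp3. The ranges were -2.51 to -1.00 for Pdk4, -0.80 to -0.50 for Acot2 and -2.47 to -1.37 for Plin5. Without control replicate 1, Lpl, Fabp3, Pdk4 and Plin4 passed the adjusted threshold, in a fit where 673 probe sets passed.

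Cxcr7 itself, which checks the labels, had signals of 28.3 and 328 in Cxcr7-/- replicates 1 and 2, far below the 4936 and 5698 of control replicates 1 and 2. Array medians lay between 84.5 and 110. The arrays did not group cleanly by genotype: across probe sets control replicate 1 correlated at 0.953 with Cxcr7-/- replicate 2 and at 0.931 with control replicate 2. The 3' to 5' signal ratio of Actb was 15.5 and 11.7 against 20.2 and 19.1 in the same order, higher in both control pools. That of Gapdh was 12.6 and 8.20 against 12.7 and 24.2, also higher in both control pools, with control replicate 2 highest. The part of RNA quality in the results was not tested.

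**Figure D1:**
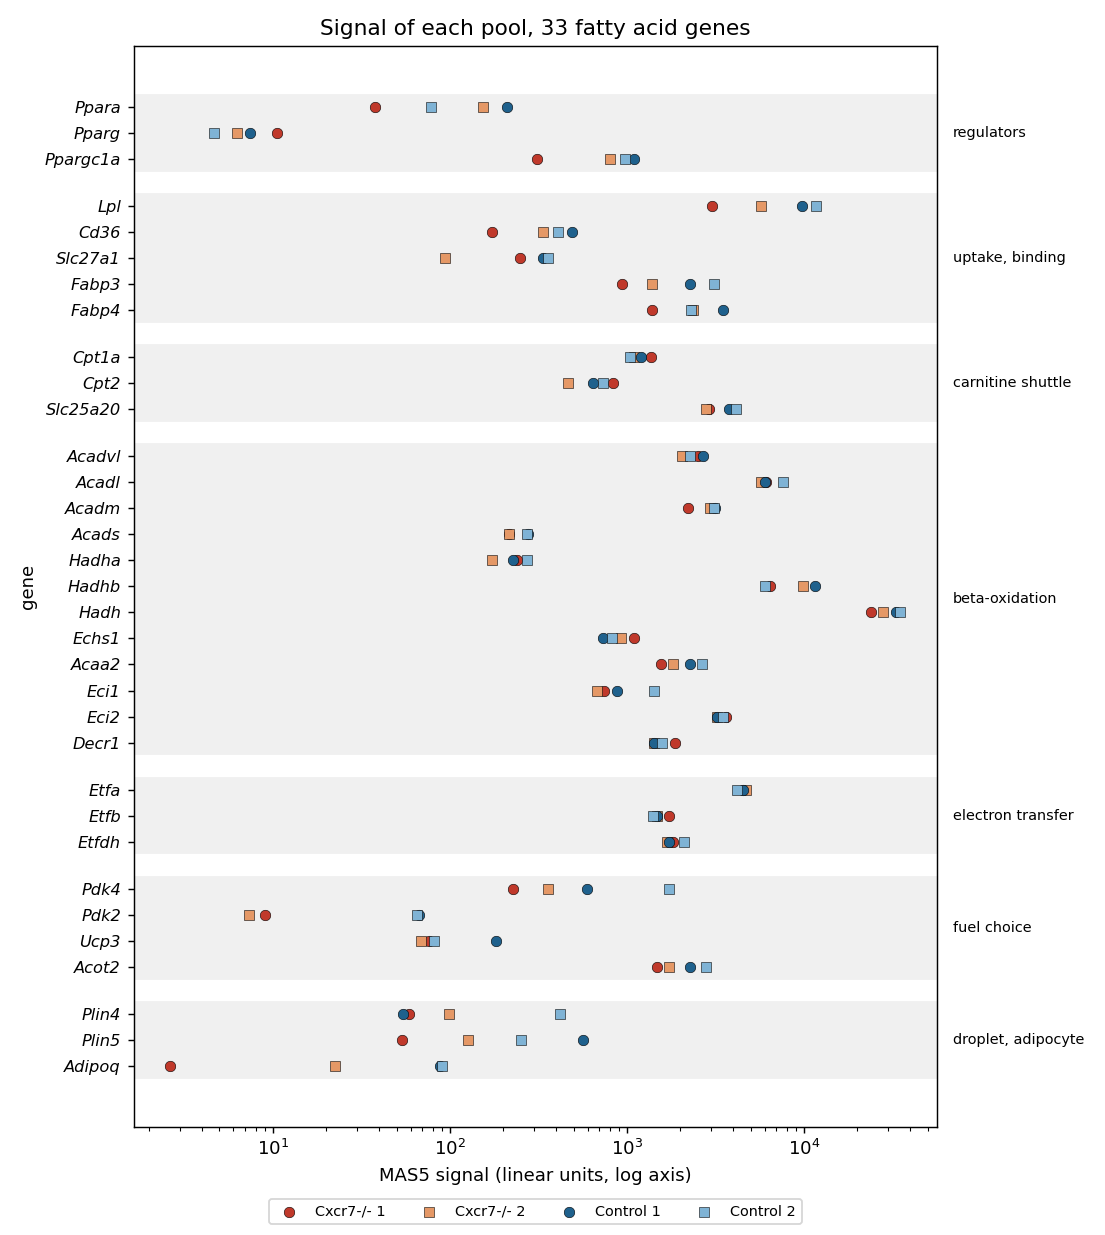
MAS5 signal of each of the 33 genes (log axis, linear signal units) in the 4 pools, 1 point per pool, grouped by role. Both Cxcr7-/- pools (red and orange) lie left of both control pools (blue) for 17 genes, among them Lpl, Fabp3, Pdk4, Acot2 and Plin5, while the points of the electron transfer genes lie close together.

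Among the regulators, Ppargc1a (PGC-1alpha), the coactivator that drives mitochondrial gene programmes, read 310 and 799 in Cxcr7-/- replicates 1 and 2 against 1092 and 976 in control replicates 1 and 2, the order used throughout. Both Cxcr7-/- pools were below both control pools, but replicate 1 carried most of the gap. The log2 difference was -1.01 ± 0.43 (SE of limma, as after every ±, n = 2 and 2 pools), and it was -0.36 without that pool. All 5 of its probe sets above the filter were negative. The weakest of them overlapped, with 250 and 654 against 679 and 314 (-0.18 ± 0.52). With the mean over its probe sets the unadjusted p of Ppargc1a was 0.0684. Ppara, the PPAR of oxidative tissues, read 38.0 and 155 against 212 and 78.7 (-0.57 ± 0.63), so the genotypes overlapped and no order could be read. Pparg, the adipocyte PPAR, read between 4.64 and 10.6 in the 4 pools, the dimmest of the 33 genes by mean signal, and at that signal a difference was not detectable.

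The proximal promoters were searched for the elements that the PPARs and estrogen-related receptors bind, since Ppargc1a acts through these receptors. RefSeq promoter sequences (GRCm38.p6) were held for 30 of the 35 genes, in 37 windows of 250 bases before the start. The estrogen-related receptor element TCAAGGTCA, on either strand, was in 0 of these windows and in 0.387% of all 32851 windows. The direct repeat of AGGNCA with 1 base between was in 0 and in 0.338%. The shared half-site AGGTCA, searched after those 2 gave no match, was in 9 of 37 windows (8 genes) and in 14.0% of all windows. The following stretches come from Cd36, Ucp3 and Plin5, with negative differences, and from Acadvl, Echs1 and Cpt1a, with smaller differences of either sign. They carry the half-site in capitals, as AGGTCA or as its reverse complement TGACCT, on the strand of the gene.
Cd36, chr5:17836104-17836139, minus strand: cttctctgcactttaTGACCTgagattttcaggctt
Ucp3, chr7:100472827-100472862, plus strand: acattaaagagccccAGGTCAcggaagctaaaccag
Ucp3, chr7:100472932-100472967, plus strand: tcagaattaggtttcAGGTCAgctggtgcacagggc
Plin5, chr17:56117698-56117733, minus strand: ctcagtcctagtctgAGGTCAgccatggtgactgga
Acadvl, chr11:70015495-70015530, minus strand: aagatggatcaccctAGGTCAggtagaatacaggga
Echs1, chr7:140116484-140116519, minus strand: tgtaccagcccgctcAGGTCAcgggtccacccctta
Cpt1a, chr19:3323192-3323227, plus strand: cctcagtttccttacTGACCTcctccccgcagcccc

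Of these genes, Cd36 was at -0.82, Ucp3 at -0.63 and Plin5 at -1.92 on the log2 scale. Acadvl (-0.12), Echs1 (0.37) and Cpt1a (0.13) held the half-site too, as did Acadm and Pparg, so the half-site was found beside negative and positive differences alike. A match in these letters is a description and not a binding site.

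Lipoprotein lipase (Lpl), which frees fatty acids from circulating triglycerides, had signals of 3022 and 5759 against 9710 and 11708. The genotypes did not overlap, and Cxcr7-/- replicate 1 was the lowest. The log2 difference was -1.35 ± 0.32, or 41.0% of the control mean. Its other probe set above the filter also read lower in both Cxcr7-/- pools, at -0.81 ± 0.36.

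Fabp3, the heart-type cytosolic fatty acid binding protein, read 940 and 1380 against 2261 and 3096. Again the genotypes did not overlap, and the log2 difference of -1.20 ± 0.30 was more than the 0.54 and 0.45 between pools of 1 genotype. Fabp4, the adipocyte and capillary form, read 1381 and 2357 against 3483 and 2307, so the genotypes overlapped, at -0.65 ± 0.34. Its other probe set above the filter did not overlap, with 878 and 1623 against 1933 and 1771 (-0.62 ± 0.33).

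Cd36, a membrane receptor for long-chain fatty acids, read 173 and 337 against 489 and 408 (-0.82 ± 0.38). It was lower in both Cxcr7-/- pools, yet these pools lay 0.88 apart on the log2 scale, as far as the genotypes did. Its other probe set above the filter was at -1.31 ± 0.50. The fatty acid transport protein Slc27a1 read 250 and 94.5 against 338 and 360 (-1.06 ± 0.45). Here Cxcr7-/- replicate 2 was the low pool, the reverse of Lpl, Fabp3 and Cd36, and without it the difference was -0.45. The other Slc27a1 probe set above the filter overlapped, with 122 and 34.9 against 80.0 and 169 (-0.62 ± 0.57). With the mean over both probe sets the unadjusted p of Slc27a1 was 0.119.

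In the carnitine shuttle the differences were small, and that of Cpt2 turned positive (0.0073) with arrays centred on their medians. Cpt1a, the outer-membrane transferase that commits fatty acids to oxidation, read 1363 and 1097 against 1197 and 1042 (0.13 ± 0.27, 95% interval of limma -0.50 to 0.75). Cpt2, the inner-membrane transferase, read 836 and 467 against 642 and 734 (-0.13 ± 0.35). In both genes the genotypes overlapped. Slc25a20, the carrier that exchanges acylcarnitine for carnitine, differed from these: it read 2899 and 2799 against 3790 and 4139 (-0.47 ± 0.23), with pools of 1 genotype close together. The other Slc25a20 probe set above the filter did not show it, at 0.08 ± 0.28.

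The log2 differences of the 12 beta-oxidation enzymes ran from -0.64 (Eci1) to 0.37 (Echs1). Both Cxcr7-/- pools were lower for 5 and higher for 1, where 19% and 18.3% of all genes were, and none had an unadjusted p under 0.05 above the filter. Of the acyl-CoA dehydrogenases, which take the first step for chains of different length, the very long-chain Acadvl read 2520 and 2055 against 2710 and 2276 (-0.12 ± 0.25). The long-chain Acadl read 6106 and 5723 against 6004 and 7629 (-0.19 ± 0.23). For both the genotypes overlapped, and Acadvl turned positive (0.013) with median centring. The medium-chain Acadm read 2207 and 2940 against 3162 and 3125 (-0.30 ± 0.25), and the short-chain Acads 216 and 217 against 277 and 272 (-0.31 ± 0.32). For Acads the pools of 1 genotype were almost equal and the genotypes apart, at a size within the error of the model. The 95% intervals were -0.88 to 0.28 for Acadm and -1.06 to 0.44 for Acads, so that of Acads reaches past a 2-fold decrease.

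The mitochondrial trifunctional protein, which carries out the later steps for long chains, is built from Hadha and Hadhb. Hadha read 241 and 173 against 226 and 274 (-0.26 ± 0.35), and Hadhb 6418 and 9884 against 11495 and 6026 (-0.06 ± 0.35). For neither subunit did the genotypes separate, and the 2 control pools were farther apart for Hadhb (-0.93) than the genotypes were. With median centring Hadhb was at 0.074. Hadh, the short-chain hydroxyacyl-CoA dehydrogenase, read 23959 and 28123 against 33222 and 35106 (-0.40 ± 0.20). Its probe set can bind similar sequences, and its other 2 above the filter were negative too, at -1.02 ± 0.39 and -0.73 ± 0.35. With the mean over its probe sets Hadh was at -0.71, with an unadjusted p of 0.0146.

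The thiolase Acaa2, which releases acetyl-CoA, read 1551 and 1813 against 2264 and 2658 (-0.54 ± 0.25), with no overlap. Its other 2 probe sets above the filter overlapped, at -0.22 ± 0.32 and 0.27 ± 0.43. The hydratase Echs1 went the other way, with 1100 and 929 against 731 and 827 (0.37 ± 0.27), and was the 1 beta-oxidation enzyme higher in both Cxcr7-/- pools. For the isomerases and the reductase that handle unsaturated fatty acids, Eci1 read 748 and 681 against 882 and 1431 (-0.64 ± 0.32). Eci2 read 3628 and 3234 against 3218 and 3490 (0.03 ± 0.23) and Decr1 1874 and 1419 against 1416 and 1582 (0.12 ± 0.27). Eci1 had both Cxcr7-/- pools below both control pools, and its difference was -0.30 without control replicate 2. Eci2 and Decr1 overlapped, and Eci2 was at -0.0062 after quantile normalization.

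The electron transfer flavoprotein and its oxidoreductase, which pass electrons from the dehydrogenases to ubiquinone, had pools close together. Etfa read 4547 and 4687 against 4510 and 4169 (0.09 ± 0.22, 95% interval -0.42 to 0.60). Etfb read 1734 and 1488 against 1477 and 1399 (0.16 ± 0.25, -0.43 to 0.74), and Etfdh 1816 and 1680 against 1730 and 2099 (-0.12 ± 0.25, -0.71 to 0.46). Etfa and Etfb were marginally higher in both Cxcr7-/- pools, by less than the standard error. Etfdh was at 0.013 with median centring, and all 3 intervals exclude a 2-fold difference in either direction.

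Pdk4, a mitochondrial kinase that inhibits pyruvate dehydrogenase and is a standard target of the PPARs, read 228 and 357 against 595 and 1734. The genotypes did not overlap, although control replicate 2 was 1.51 above control replicate 1 on the log2 scale. The log2 difference was -1.76 ± 0.50, or 25.1% of the control mean, and it ranged from -2.51 to -1.00 with 1 pool left out. Pdk2, the widely expressed form of the kinase, read 9.02 and 7.34 against 66.7 and 64.9, below the filter. Its pools lay close together within each genotype, but signals this dim have large relative errors and a log2 difference (-1.54) that depends on the pseudocount.

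Acot2, a mitochondrial thioesterase that releases fatty acids from CoA, read 1483 and 1723 against 2267 and 2798 (-0.65 ± 0.26). Its other probe set above the filter, near the dim end, was at -0.04 ± 0.41. With the mean over both probe sets the unadjusted p of Acot2 was 0.219. The muscle uncoupling protein Ucp3 read 76.7 and 68.4 against 183 and 81.8 (-0.63 ± 0.47), so its 3 lower pools were alike and control replicate 1 alone stood above them.

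Plin5, a droplet coat protein of oxidative tissues that tethers droplets to mitochondria, read 54.0 and 127 against 568 and 252. Pools of 1 genotype lay 0.97 (Cxcr7-/-, replicate 2 minus 1) and -1.10 (control) apart, but the genotypes did not overlap, and the log2 difference was -1.92 ± 0.50. This rests on 1 probe set whose suffix marks probes shared with other transcripts. The other Plin5 probe set was below the filter, with 37.1 and 57.1 against 15.5 and 44.1, and was at 0.46. Plin4, another droplet coat protein, read 59.2 and 98.5 against 54.4 and 418 (-0.89 ± 0.76), and without control replicate 2 it was at 0.37. The adipocyte hormone Adipoq read 2.63 and 22.4 against 88.0 and 90.3, below the filter, at -1.75.

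**Figure D2:**
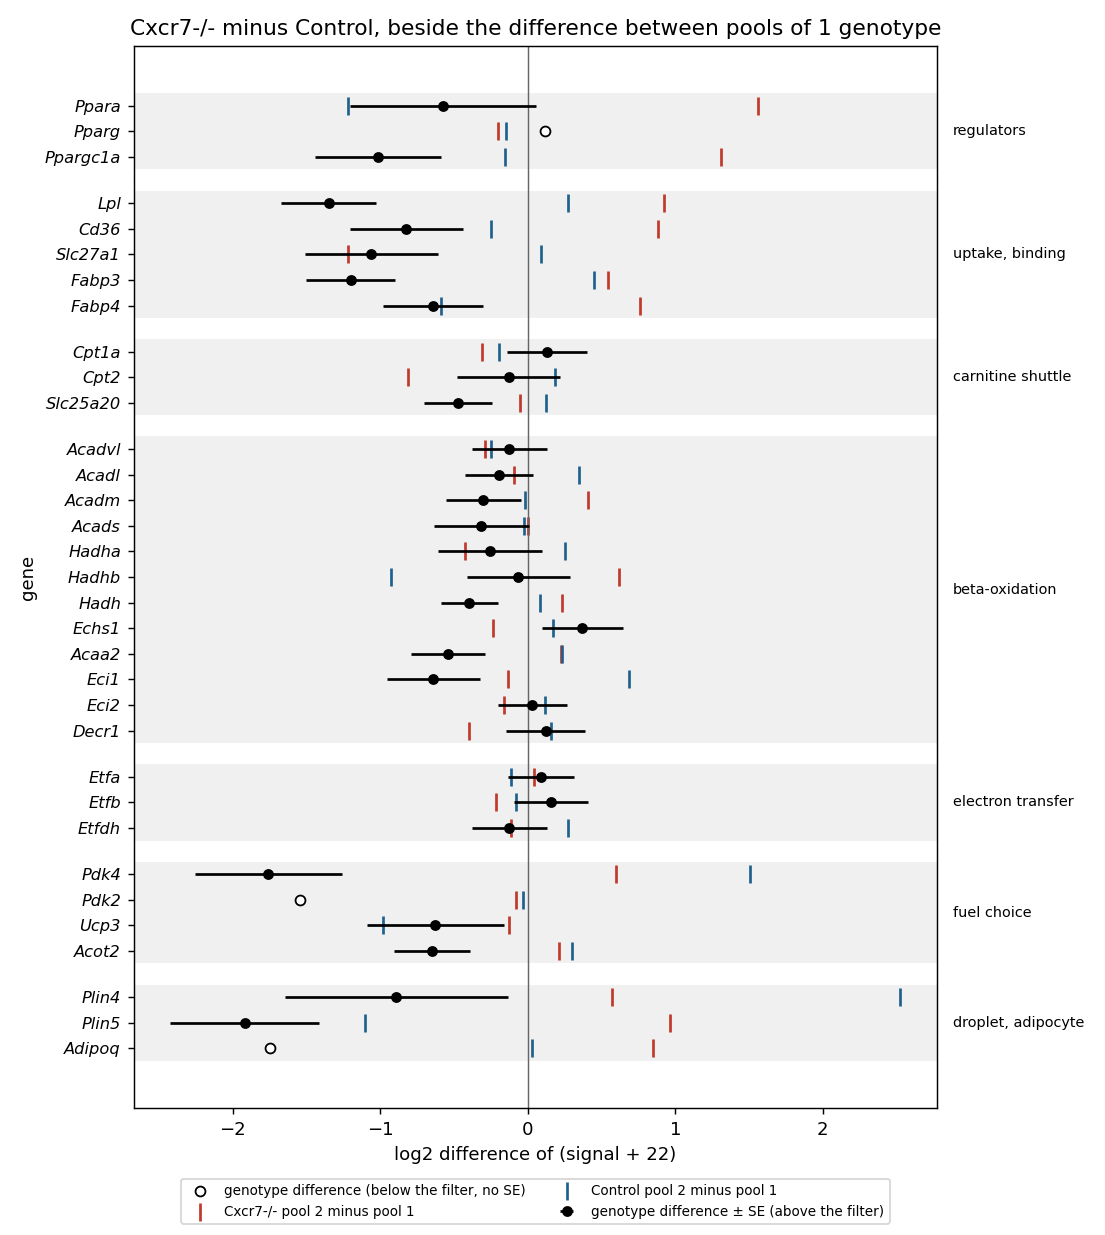
Log2 difference of (signal + 22), Cxcr7-/- minus control, for each of the 33 genes (black point, whisker 1 SE of limma; open point below the filter), beside the difference between replicates 2 and 1 of the Cxcr7-/- pools (red) and of the control pools (blue), as ticks. For Lpl, Fabp3, Pdk4, Acot2 and Plin5 the black point lies farther from 0 than both ticks, while for Ppara, Plin4 and Hadhb a pair of pools of 1 genotype differed by more than the genotypes.

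Of the 33 genes, 13 had more than 1 probe set above the filter, and in 10 of them all probe sets had the same sign, 9 negative and 1 positive (Cpt1a). The exceptions were Acaa2, Decr1 and Slc25a20.

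Other genes of lipid and energy metabolism, in lists of oxidation, uptake, droplets, regulators, fatty acid synthesis and the citric acid cycle, had list medians from -0.17 to 0.11. Over these 6 lists with 122 matched genes, of which 105 were above the filter, 2 were lower with an unadjusted p under 0.05, 3 were higher with one, and 0 passed the adjusted test. Both counts are smaller shares than the 4.09% and 3.95% of all genes above the filter. Other oxidation and ketone body genes (31 matched) had a median of 0.11. Of these, 3 were lower in both Cxcr7-/- pools and 11 higher in both, against 19% and 18.3% of all genes. The 3 higher with an unadjusted p under 0.05 were Crot, the peroxisomal carnitine octanoyltransferase (1.01 ± 0.32), and the acyl-CoA synthetases Acsl3 (1.01 ± 0.30) and Acsl5 (0.61 ± 0.24). Both lower with one were regulators: Esrrg, an estrogen-related receptor of oxidative tissues (-1.07 ± 0.41), and the mitochondrial deacetylase Sirt3 (-0.77 ± 0.30).

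Citric acid cycle genes (21 matched) had a median of -0.13 and fatty acid synthesis genes (14 matched) a median of 0.04, with none at an unadjusted p under 0.05. Other lipid droplet and triglyceride genes (17 matched) had a median of -0.09. Of these, 6 were lower in both Cxcr7-/- pools and 1 higher, against 19% and 18.3% of all genes. The hormone-sensitive lipase Lipe read 26.8 and 12.9 against 153 and 146 (-2.06) and the brown fat droplet protein Cidea 41.9 and 27.4 against 139 and 103 (-1.34), both below the filter.

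Heart muscle, which borders the leaflets, uses these genes heavily, and its markers also read lower. Of 32 cardiomyocyte genes (sarcomere, calcium handling and transcription factors), 30 were negative and 22 had both Cxcr7-/- pools below both control pools, against 19% of all genes. Of the 31 above the filter, 15 were lower with an unadjusted p under 0.05 and 0 higher, against 4.09% and 3.95%. Their median was -0.86. Their signals summed to 140099 and 200668 against 237126 and 322378. Myh6, the alpha myosin heavy chain, read 5374 and 10006 against 16963 and 26791. No defining marker was at 0, and Xirp1 was the dimmest, with 3.43 in Cxcr7-/- replicate 2. In bulk samples, fewer cells of a type and less RNA per cell cannot be told apart, and the part of heart muscle in the fatty acid results was not tested.

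The pools of 1 genotype also differed in these markers. The median log2 difference of replicate 2 minus replicate 1 among Cxcr7-/- pools was 0.57 for cardiomyocyte markers, 0.76 for uptake and binding genes, 0.85 for lipid droplet and adipocyte genes, 0.07 for fuel choice and -0.11 for beta-oxidation enzymes. Among control pools it was 0.66 for cardiomyocyte markers, 0.09 for uptake and binding, 0.03 for lipid droplet and adipocyte genes, 0.14 for fuel choice and 0.14 for beta-oxidation enzymes. In the Cxcr7-/- pools, the medians of uptake genes, droplet genes and heart muscle markers were all lower in replicate 1, though Slc27a1 was lower in replicate 2 (-1.22). In the control pools the median was 0.66 for the heart muscle markers, and 0.09 and 0.03 for the uptake and droplet genes. These small medians covered single values of both signs. Among uptake genes the control pools differed by 0.45 (Fabp3), 0.27 (Lpl), 0.09 (Slc27a1), -0.25 (Cd36) and -0.59 (Fabp4). Among droplet genes they differed by 2.53 (Plin4), 0.03 (Adipoq) and -1.10 (Plin5). The lipid droplet and adipocyte medians in this paragraph were the values of Adipoq, 1 of 3 genes. A link between these differences was not tested. Over the 4 pairings of a Cxcr7-/- pool with a control pool, the cardiomyocyte median ran from -1.55 to -0.11. The ranges were -1.32 to -0.70 for uptake and binding, -1.20 to -0.94 for fuel choice, -2.19 to -1.31 for lipid droplet and adipocyte genes and -0.24 to -0.17 for beta-oxidation enzymes.

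**Figure D3:**
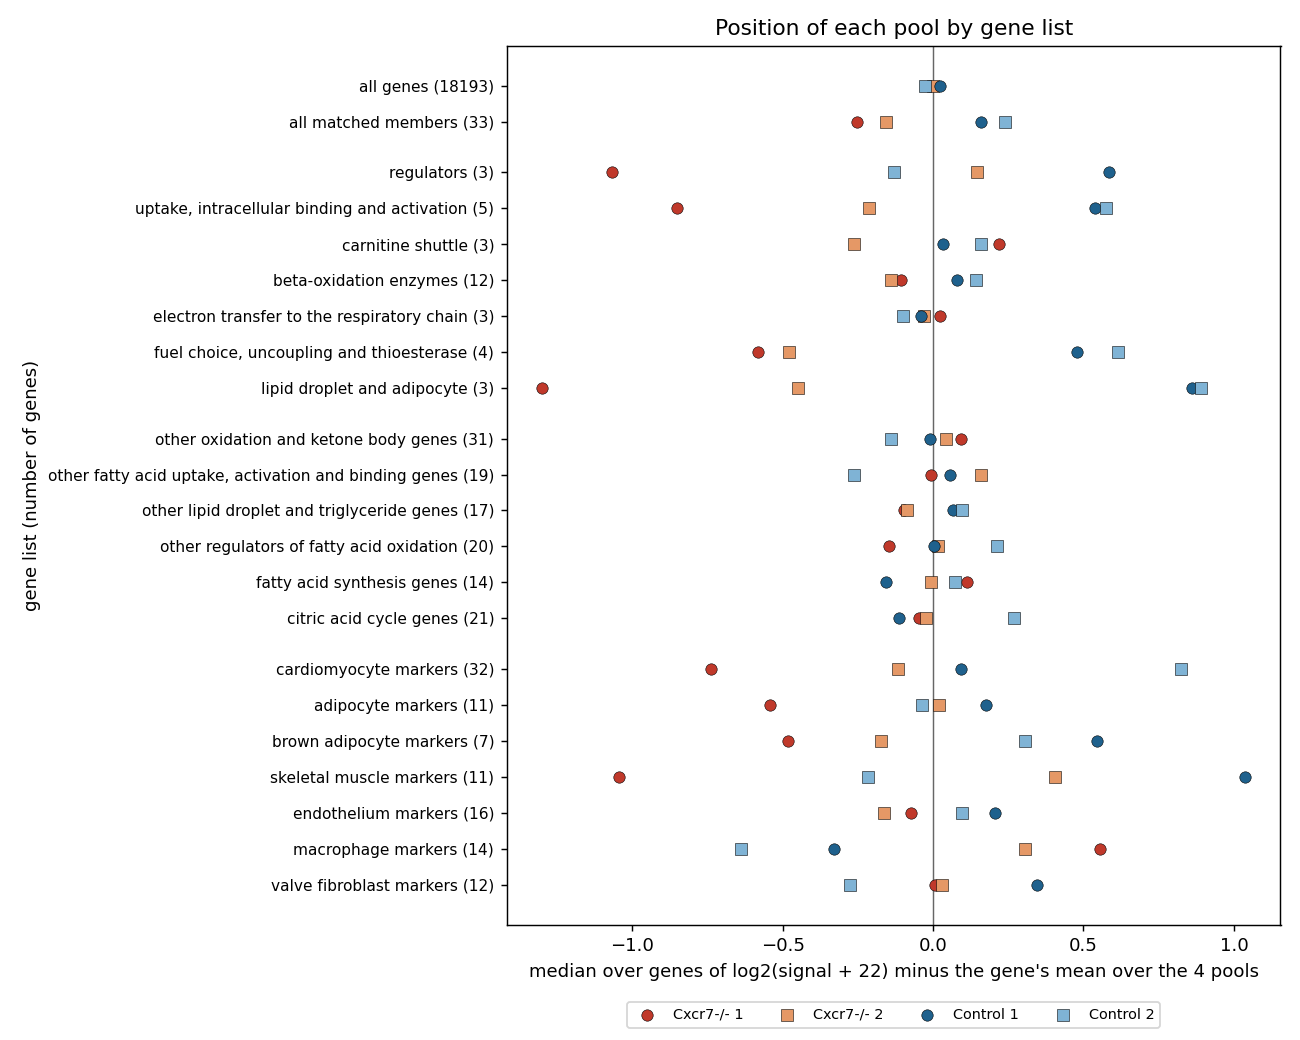
For each gene list (number of genes in brackets) and each pool, the median over genes of log2(signal + 22) minus the gene's own mean over the 4 pools. Uptake, fuel choice and lipid droplet genes lie left for both Cxcr7-/- pools and right for both control pools, as do the cardiomyocyte markers, while electron transfer and all genes together lie near 0 in every pool.

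Of 7 brown adipocyte markers 5 were negative and the median was -0.85. Both Cxcr7-/- pools were lower for 4 and higher for 1, against 19% and 18.3% of all genes. Of the 3 above the filter (Cox8b, Dio2 and Prdm16), 3 were lower with an unadjusted p under 0.05 and 0 higher. The shares over all genes above the filter were 4.09% and 3.95%. Prdm16 read 103 and 247 against 346 and 363 (-1.04 ± 0.43). The summed signal was 757 and 864 against 1660 and 1599. Cox8b, a cytochrome oxidase subunit of brown fat and heart, read 11.4 and 62.7 against 184 and 339, and the deiodinase Dio2 527 and 376 against 895 and 754. Elovl3, a fatty acid elongase, was higher in both Cxcr7-/- pools, with 64.9 and 81.3 against 43.9 and 34.5 (0.63), and Zic1 was positive at 0.75 with overlapping genotypes, both below the filter. The defining marker Ucp1 read at most 46.4 in any pool. A further list held 11 genes of adipocytes, 1 of them above the filter. Its median log2 difference was -0.17, with 7 genes below 0 and 4 above. Both Cxcr7-/- pools were lower for 3 (Car3 at -0.54, Lipe at -2.06 and Acvr1c at -0.56) and higher for 0, against 19% and 18.3% of all genes. Lipe and Acvr1c were below the filter. In the same list Lep and Retn read at most 10.2 and 12.7, near background. The summed signal of these 11 genes, nearly all of it from Car3, was 13113 and 17359 against 24539 and 19727. The part of fat cells in the results for Adipoq, Lpl, Fabp4 and Plin5 was not tested.

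Capillary endothelium (Cd36, Fabp4) and macrophages (Lpl, Cd36) also express some of these genes. Endothelial markers had a median of -0.23 (11 of 16 negative), with a summed signal of 16874 and 16176 against 21327 and 24564. Both Cxcr7-/- pools were lower for 8 and higher for 0, against 19% and 18.3% of all genes. Of the 15 above the filter, 4 were lower with an unadjusted p under 0.05 and 0 higher, against 4.09% and 3.95%. Macrophage markers were higher in Cxcr7-/- pools, 13 of 14 positive with a median of 1.08, and their summed signal was 23410 and 19394 against 13852 and 11627. Both Cxcr7-/- pools were higher for 11 of them and lower for 0. Of the 13 above the filter, 9 were higher with an unadjusted p under 0.05 and 0 lower, against 3.95% and 4.09% of all genes above it. Skeletal muscle markers had 10 of 11 negative and no gene whose genotypes separated, with a summed signal of 934 and 2963 against 5637 and 1864. Valve fibroblast markers had a median of 0.01 (6 of 12 negative), and all 12 were above the filter. Both Cxcr7-/- pools were lower for 2 (Prg4 and Fmod) and higher for 1 (Lum), against 19% and 18.3% of all genes. With an unadjusted p under 0.05, 2 were lower and 0 higher, against 4.09% and 3.95%. The 2 were Prg4 (-1.73 ± 0.27) and Fmod (-0.92 ± 0.23). The part of these cells in the results was not tested.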

How the data were processed

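Valve RNA of 4 pools was measured, and per the labels 50 ng of it was amplified in 2 rounds, which lowers signal far from the 3' end. The authors deposited linear intensity values (MAS5 signals, with Expression Console also named in the submitters' processing notes), and no software version, detection call or build is given. The trimmed mean was 500.003 on every array. MAS5 subtracts background, so dim signals are imprecise, and the number of arrays limits the precision.

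From these values log2(signal + 22) was computed, 22 being the rounded 25th percentile. After 64 control probe sets were set aside, 45037 remained (34945 with 1 gene symbol, 932 with several, 9160 with none), and the 22518 with a mean above the median were fitted with limma 3.58.1 in R 4.3.3 (intensity trend, two-sided, Benjamini-Hochberg over all of them). No exact permutation test was used, since 2 against 2 cannot go below 0.333. On simulated data with 22518 probe sets this fit recovered 0.821% of 2-fold, 35.6% of 4-fold and 73.0% of 8-fold changes. The genes and lists were chosen with earlier results of these data known. All 35 genes, Ackr3 and, from each other list, up to 3 genes with the smallest unadjusted p without a filter could be named. Lep, Retn, Ucp1, Elovl3, Zic1, Prdm16 and Xirp1 were chosen after their values were seen. Alternatives covered the pseudocount, filter, scaling, trend, probe set choice, replicate block and each array left out.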

Additional observations from a re-analysis of the deposited data

How the results depend on the processing

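The count of 7 genes lower with an unadjusted p under 0.05 was 4 with arrays centred on their medians. That setting moved the median difference over all probe sets from -0.04 to 0.09. In it 5 genes had both Cxcr7-/- pools above both control pools. The shares of all genes were not counted in that setting, so neither count can be read against a background. The median over the 33 genes was -0.33 with that centring, -0.31 with the mean over all probe sets of a gene, -0.39 with a pseudocount 4 times larger, and -0.31 without probe sets of an _x_at or _s_at suffix, an alternative chosen after seeing the data, in which Plin5 was at 0.46. With 1 array left out, the count of 7 ranged from 4 to 9, the count past the adjusted threshold from 0 to 4, the median from -0.51 to -0.36, and the genes with both Cxcr7-/- pools higher from 3 to 8. That last range compares only the pools that remain, and 3 pools separate by genotype more easily than 4. A rise in it is therefore no sign of more higher genes, and no share of all genes was set beside it. The count of 17 lower genes rose too, to 21 without control replicate 1 and to 21 without control replicate 2. Small differences changed sign: with median centring Cpt2 was at 0.0073, Acadvl at 0.013, Hadhb at 0.074 and Etfdh at 0.013. With quantile normalization Eci2 was at -0.0062. With 1 array left out, Ppara ranged from -1.35 to 0.21, Cpt1a from -0.026 to 0.28, Cpt2 from -0.54 to 0.28, Acadvl from -0.27 to 0.021 and Hadhb from -0.53 to 0.40. Likewise Eci2 ranged from -0.051 to 0.11, Decr1 from -0.076 to 0.32, Etfdh from -0.26 to 0.013 and Plin4 from -2.15 to 0.37. The sign of 23 genes changed in no alternative run. The causes were not tested. Same-numbered pools did not deviate together (correlation -0.26), and the labels tie no number to a litter or day. With the replicate block the count of 7 was 6, and with the crossed pairing, added after seeing the data, it was 10. The share of all genes called in these 2 fits was not counted, so the 10 is no sign of a stronger result for these genes. Signals near or below 22, as for Pparg in all 4 pools and for Pdk2 and Adipoq in the Cxcr7-/- pools, limit what these arrays can show.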

Other observations

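The pools at the extremes were not spread evenly over the 33 fatty acid genes. Cxcr7-/- replicate 1 was the lowest of the 4 pools for 14 of them and Cxcr7-/- replicate 2 for 10, shares of 42.4% and 30.3%, where the same pools were lowest for 24.7% and 23.2% of all 18193 genes. Control replicate 2 was the highest pool for 14 genes (42.4%, against 27.0% of all genes) and control replicate 1 for 11 (33.3%, against 28.1%). Cxcr7-/- replicate 2 was the highest for 1 gene, Etfa.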
